A study of Homo sapiens with 8 samples.

Results

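The mRNAs of 10 genes of cellular iron handling were followed between P-bodies and the cytosol of 2 human leukaemia cell lines. The genes were chosen by symbol for their roles, as NCOA4 and TAX1BP1 (autophagy of ferritin), FTH1 and FTL (ferritin chains), TFRC and SLC11A2 (iron uptake), SLC40A1 (iron export), IREB2 and ACO1 (iron regulatory proteins) and HMOX1 (haem breakdown). All 10 were found among the 60196 gene symbols that stood on a single row of the count tables. The study sequenced total RNA of P-body preparations (P-body-seq) and of a fraction labelled "cyto", read here as cytosolic, from HEL, an erythroleukaemia line, and MOLM-13, an acute myeloid leukaemia line of monocytic character. Each line contributed 2 P-body and 2 cytosolic libraries, and all cells were grown in the same serum-supplemented medium, with no genetic change or drug named in the labels. Each line has its own count table, so line and table cannot be told apart. The labels do not state whether replicates are separate cultures; p-values then reflect only how far these libraries spread, which may be technical.

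P-bodies are membraneless assemblies in the cytoplasm where mRNAs that are not being translated gather with decay and repression factors. Cells store iron inside ferritin, a shell of heavy and light chains, and release it when the cargo receptor NCOA4 carries ferritin to the lysosome, a route called ferritinophagy. The iron regulatory proteins read the state of iron supply: when iron is low they bind hairpins called iron-responsive elements, which blocks translation of mRNAs that carry the hairpin in the 5′ untranslated region and protects mRNAs that carry it in the 3′ untranslated region from decay. Erythroid cells take up much iron for haem, whereas monocytic cells are known for iron storage and recycling.

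The iron-responsive elements are printed because they sort the genes into those with the hairpin before and those with it after the coding sequence. They were read from GENCODE release 29 transcripts on build GRCh38, and the pattern searched in the sense of the transcript was a C, 5 bases, the loop CAGTGN and 5 bases that pair with the first 5 (G-T pairs allowed). The capitals mark the loop of 6 bases.
FTH1, 5′ untranslated region, exon 1, chr11:61967573-61967602, minus strand: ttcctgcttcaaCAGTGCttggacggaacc
FTL, 5′ untranslated region, exon 1, chr19:48965335-48965364, plus strand: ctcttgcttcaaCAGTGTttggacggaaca
SLC40A1, 5′ untranslated region, exon 1, chr2:189580660-189580689, minus strand: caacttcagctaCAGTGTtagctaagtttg
TFRC, 3′ untranslated region, exon 19, chr3:196050978-196051007, minus strand: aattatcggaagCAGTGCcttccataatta
TFRC, the same exon, chr3:196050574-196050603, minus strand: cattatcgggagCAGTGTcttccataatgt
TFRC, the same exon, chr3:196050509-196050538, minus strand: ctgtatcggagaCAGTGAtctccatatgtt
TFRC, the same exon, chr3:196050462-196050491, minus strand: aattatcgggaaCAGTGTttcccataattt
The loop began at base 71 of the 235 bases of the FTH1 leader, at base 47 of 207 in FTL and at base 211 of 427 in SLC40A1. In TFRC the 4 matched loops began at bases 947, 1351, 1416 and 1463 of a 3′ untranslated region of 2658 bases. A hairpin that departs from the pattern would be missed, so 4 may not be the full number in TFRC. The pattern was present in 21 of 18319 coding 5′ untranslated regions (0.115%) and in 105 of 19006 coding 3′ untranslated regions (0.552%). It had no match in the transcripts used for the other 6 genes, SLC11A2 included, which says only that these letters are not there.

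Total counts ran from 13153551 to 18071473 in the HEL libraries and from 5897625 to 11000536 in the MOLM-13 libraries. The lineage of each line was checked with 8 erythroid and megakaryocytic and 8 monocytic and granulocytic markers. The summed erythroid and megakaryocytic markers lay at 1124 to 1994 CPM (read counts scaled to a common library size) in the HEL libraries and at 26.1 to 33.6 CPM in the MOLM-13 libraries, where 2 to 5 of the 8 were at 0. The monocytic and granulocytic markers summed to 1508 to 2655 CPM in MOLM-13 and to 30.6 to 53.5 CPM in HEL, where 2 to 4 of 8 were at 0. The marker levels followed the labels of the lines. In each line the markers of its own lineage summed higher in the cytosol than in P-bodies. Summed lymphoid markers were at most 2.96 CPM in HEL and 34.1 to 37 CPM in MOLM-13. The nuclear RNAs MALAT1, NEAT1, KCNQ1OT1 and MEG3 together made up 661 to 739 CPM in HEL and 3242 to 5132 CPM in MOLM-13. The highest values were in MOLM-13 cytosol. Most of each sum was MALAT1, at a mean of 651 CPM in HEL cytosol and 683 CPM in HEL P-bodies. NEAT1 (34.6 and 16.9 CPM) and KCNQ1OT1 (10.7 and 6.26 CPM) were lower in HEL P-bodies than in HEL cytosol. The part of these RNAs in the results was not tested.

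Enrichment in P-bodies over cytosol was tested line by line with edgeR's quasi-likelihood test on the counts, with TMM size factors and Benjamini-Hochberg adjustment over all tested genes, and a gene was called at an adjusted p below 0.05. In HEL, NCOA4, TAX1BP1, TFRC, SLC11A2, SLC40A1 and IREB2 were called higher in P-bodies (6 of 10) and FTL and ACO1 were called lower (2 of 10). Over all 14772 genes tested in HEL, 27.7% were called higher and 27.1% lower. In MOLM-13, NCOA4, TAX1BP1, TFRC, IREB2 and HMOX1 were called higher (5 of 9) and FTH1 and FTL lower (2 of 9). Among the 14089 genes tested there, 32.4% were called higher and 28.4% lower. SLC40A1 could not be tested in MOLM-13, with 1 and 3 counts in its P-body and 1 and 1 in its cytosolic libraries. The median log2 change was 0.34 over the 10 genes in HEL and 0.48 over the 9 in MOLM-13, beside medians of -0.062 and -0.037 over all tested genes. With TMM, each change is measured against most other genes of the library. When libraries were scaled by their totals the median of all genes shifted by -0.32 (HEL) and -0.44 (MOLM-13), and small changes have to be read against that shift. On that scale 3 of the 10 genes were called higher and 3 lower in HEL, and 3 of 9 higher and 2 lower in MOLM-13.

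**Figure D1:**
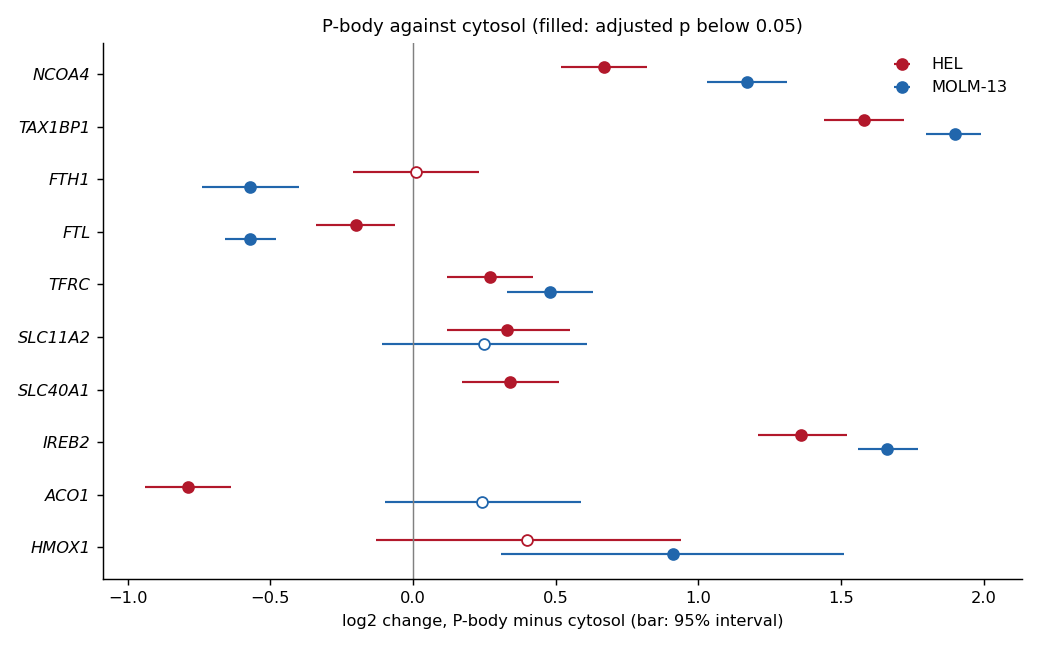
Log2 change between P-bodies and cytosol (horizontal axis) for each gene in HEL (red) and MOLM-13 (blue), with 95% intervals and filled points for an adjusted p below 0.05 (edgeR quasi-likelihood test, 2 libraries a group). TAX1BP1, IREB2 and NCOA4 lie to the right in both lines, FTL lies to the left in both, and ACO1 lies at -0.79 in HEL and at 0.24 in MOLM-13; SLC40A1 was not tested in MOLM-13.

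NCOA4, the cargo receptor of ferritinophagy, was enriched in P-bodies of both lines. In HEL it stood at 647 and 575 CPM in the P-body libraries and at 396 and 374 CPM in the cytosolic libraries. In MOLM-13 the values were 157 and 155 CPM against 65.5 and 72.7 CPM. The P-body libraries were above the cytosolic ones in each line with no overlap. The log2 change was 0.67 ± 0.073 (SE) in HEL, 1.59-fold (adjusted p = 2.09e-08, edgeR quasi-likelihood test), and 1.17 ± 0.068 in MOLM-13, 2.25-fold (adjusted p = 7.03e-14). Scaled by library totals the log2 changes were 0.34 and 0.73, both still called. NCOA4 lies at chr10:46005088-46030714 on the minus strand, and its transcript of 2307 bases has 12 exons and a short 3′ untranslated region of 209 bases.

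TAX1BP1, an autophagy receptor that takes part in the turnover of ferritin, had the greatest P-body enrichment of the 10 genes in both lines. Its HEL values were 818 and 796 CPM in P-bodies and 270 and 271 CPM in cytosol. MOLM-13 libraries held 1301 and 1241 CPM in P-bodies and 352 and 330 CPM in cytosol. Replicates lay close together and the fractions were far apart. TAX1BP1 was 2.99-fold higher in HEL P-bodies (log2 change 1.58 ± 0.069, SE, adjusted p = 7.54e-16, edgeR quasi-likelihood test) and 3.73-fold higher in MOLM-13 (1.90 ± 0.046, adjusted p = 2.89e-21). The gene lies at chr7:27739331-27844564 on the plus strand. JAZF1 overlaps it on the other strand with 402 to 1034 counts per HEL library and at most 17 in MOLM-13, against at least 2388 counts for TAX1BP1, and no source used here gives the strand setting of the counting.

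By TMM, neither ferritin chain was called higher in P-bodies of either line. FTL, the light chain, had 898 and 942 CPM in HEL P-bodies and 1037 and 1080 CPM in HEL cytosol. In MOLM-13 it had 3402 and 3619 CPM in P-bodies and 5401 and 5028 CPM in cytosol. By CPM, FTL was the most abundant of the 10 mRNAs in both fractions of each line. All P-body values lay below the cytosolic values of the same line. FTL fell 1.49-fold in MOLM-13 P-bodies (log2 change -0.57 ± 0.043, SE, adjusted p = 1.16e-11, edgeR quasi-likelihood test). The HEL difference was 1.15-fold lower (-0.20 ± 0.067, adjusted p = 0.0127), and it was not called with RLE size factors (-0.15, adjusted p = 0.186), with DESeq2 (-0.15, adjusted p = 0.0829), or without HEL cytosol replicate 1 (-0.24, adjusted p = 0.0567) or replicate 2 (-0.17, adjusted p = 0.198). On library totals the FTL change was -0.53 in HEL and -1.01 in MOLM-13. The direction turned once a trend on base composition and transcript length was removed, to 0.24 in HEL, where FTL was then called higher, and to 0.074 in MOLM-13.

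FTH1, the heavy chain that NCOA4 binds, had 65.4 and 63.7 CPM in HEL P-bodies and 56.6 and 71.4 CPM in HEL cytosol, so the groups overlapped. In MOLM-13 it had 53.7 and 63 CPM in P-bodies and 87.6 and 85.6 CPM in cytosol, with no overlap. FTH1 was 1.49-fold lower in MOLM-13 P-bodies (log2 change -0.57 ± 0.082, SE, adjusted p = 1.33e-06, edgeR quasi-likelihood test). In HEL no change was called (0.01 ± 0.1, 95% interval -0.21 to 0.23, adjusted p = 0.946), and on library totals it was called lower there (-0.31, adjusted p = 0.0172). FTH1 values are uncertain, because the gene has many near-identical processed pseudogenes. The 25 FTH1 pseudogene symbols held 11.6% to 26.5% of the joint counts of gene and pseudogenes in a library, whereas those of FTL held at most 1.13% and those of NCOA4 at most 0.661%. With pseudogene counts added, the FTH1 change was 0.0049 in HEL and -0.70 in MOLM-13. No source used here gives how reads with several matches were counted.

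TFRC, the transferrin receptor, and SLC11A2, the divalent metal transporter DMT1, bring iron into the cell. TFRC had 683 and 609 CPM in HEL P-bodies against 542 and 531 CPM in cytosol. MOLM-13 held 98.9 and 105 CPM in P-bodies and 73.9 and 72 CPM in cytosol. The P-body libraries were the higher ones in both lines, by a small margin. TFRC was 1.2-fold higher in HEL (log2 change 0.27 ± 0.071, SE, adjusted p = 0.00242, edgeR quasi-likelihood test) and 1.4-fold higher in MOLM-13 (0.48 ± 0.071, adjusted p = 2.09e-06). These rises were close in size to the shift between scalings, and on library totals TFRC stood at -0.058 in HEL and 0.043 in MOLM-13, called in neither line.

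SLC11A2 had 60.9 and 51 CPM in HEL P-bodies and 45.2 and 43.7 CPM in cytosol, without overlap. In MOLM-13 it was scarce, with 12.3 and 12.8 CPM in P-bodies and 11.7 and 9.56 CPM in cytosol. It was 1.26-fold higher in HEL P-bodies (log2 change 0.33 ± 0.1, SE, adjusted p = 0.00853, edgeR quasi-likelihood test). The HEL call was lost without HEL P-body replicate 1 (0.20, adjusted p = 0.204) and on library totals (0.0066, adjusted p = 0.958). In MOLM-13 the log2 change was 0.25 with a 95% interval of -0.11 to 0.61 (adjusted p = 0.216), and -0.19 on library totals.

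SLC40A1 encodes ferroportin, the iron exporter of the cell surface. HEL P-bodies held 156 and 142 CPM and HEL cytosol 122 and 114 CPM. The fractions did not overlap, and SLC40A1 was 1.27-fold higher in P-bodies (log2 change 0.34 ± 0.083, SE, adjusted p = 0.00114, edgeR quasi-likelihood test), but at 0.013 and not called on library totals (adjusted p = 0.888). In MOLM-13 the mRNA was close to the detection limit.

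The mRNAs of the iron regulatory proteins parted ways in HEL. IREB2, which encodes IRP2, had 488 and 465 CPM in HEL P-bodies and 194 and 177 CPM in cytosol, and 407 and 414 CPM against 126 and 133 CPM in MOLM-13. It was higher in P-bodies in both lines, 2.58-fold in HEL (log2 change 1.36 ± 0.074, SE, adjusted p = 3.67e-14, edgeR quasi-likelihood test) and 3.17-fold in MOLM-13 (1.66 ± 0.052, adjusted p = 2.1e-19). ACO1, which encodes IRP1, a protein that is a cytosolic aconitase when it holds an iron-sulfur cluster, had 146 and 146 CPM in HEL P-bodies and 250 and 255 CPM in HEL cytosol. In MOLM-13 it had 12.6 and 14.2 CPM in P-bodies and 11.8 and 10.9 CPM in cytosol. ACO1 was 1.73-fold lower in HEL P-bodies (-0.79 ± 0.074, adjusted p = 1.43e-09), the greatest fall of the 10 genes in HEL. In MOLM-13 no change was called (0.24 ± 0.17, 95% interval -0.10 to 0.59, adjusted p = 0.215), and its sign turned on library totals (-0.19). The counts of IREB2 over ACO1 within a library do not depend on the scaling. This ratio was 3.34 and 3.18 in HEL P-bodies and 0.773 and 0.693 in HEL cytosol, so that ACO1 led in the HEL cytosol and IREB2 in the P-bodies. In MOLM-13 it was 32.3 and 29.1 in P-bodies and 10.7 and 12.2 in cytosol.

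HMOX1, haem oxygenase, which frees iron from haem, was near the lower end of what these libraries measured. Its counts were 75 and 60 in HEL P-bodies, 52 and 52 in HEL cytosol, 42 and 47 in MOLM-13 P-bodies and 16 and 24 in MOLM-13 cytosol. It was 1.87-fold higher in MOLM-13 P-bodies (log2 change 0.91 ± 0.29, SE, adjusted p = 0.00931, edgeR quasi-likelihood test). That call was lost with DESeq2 (adjusted p = 0.0902), on library totals (0.47, adjusted p = 0.153), without MOLM-13 P-body replicate 2 (0.76, adjusted p = 0.0547) and without MOLM-13 cytosol replicate 1 (0.80, adjusted p = 0.0566). In HEL the log2 change was 0.40 with a 95% interval of -0.13 to 0.94 (adjusted p = 0.197).

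**Figure D2:**
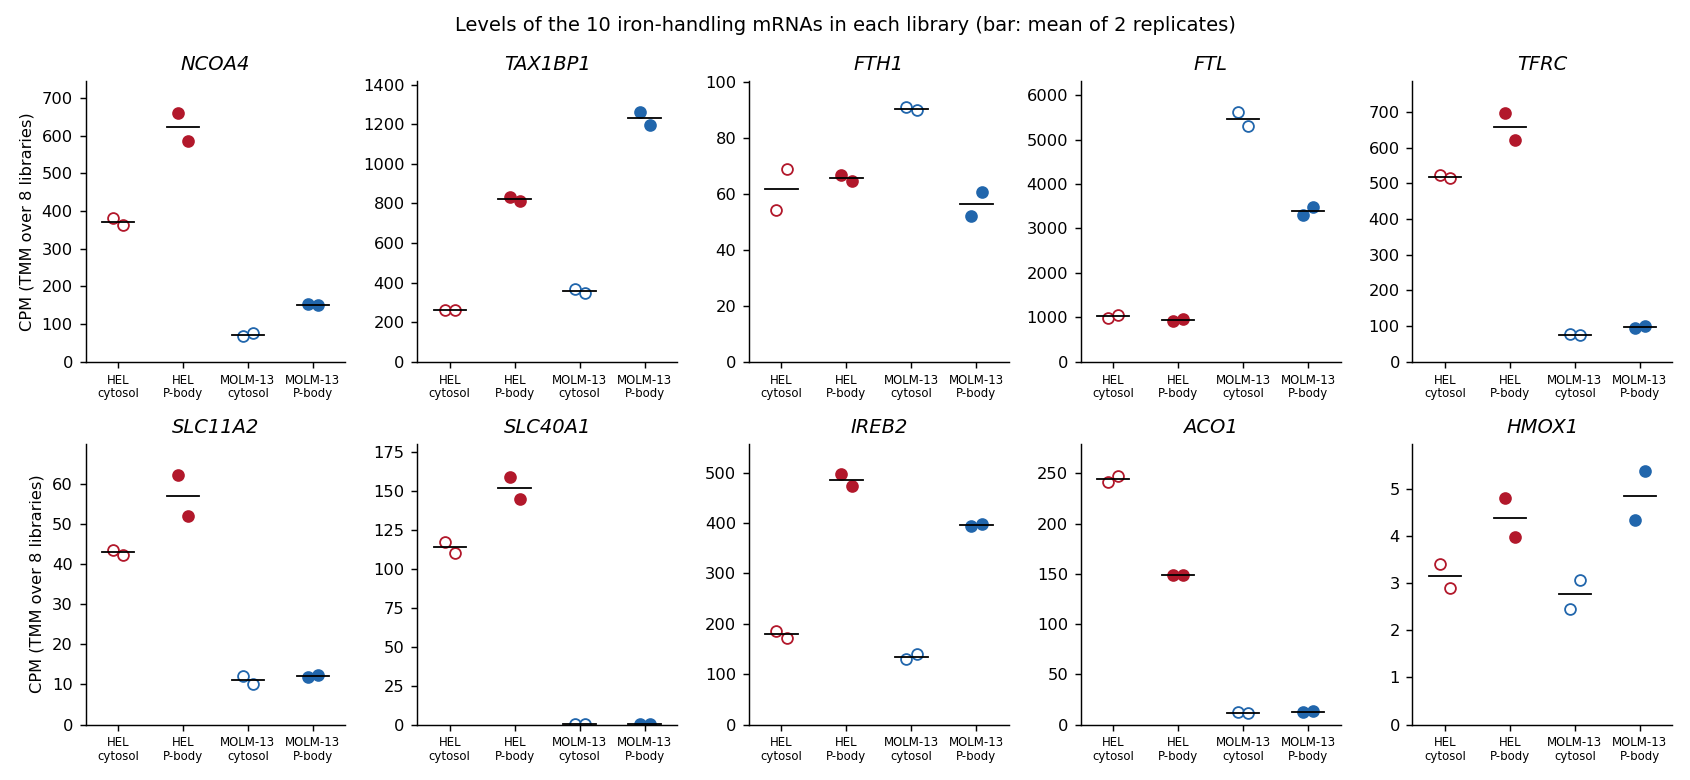
CPM of each gene in each of the 8 libraries (vertical axis from 0, TMM scaling over all libraries), with open points for cytosol, filled points for P-bodies, red for HEL, blue for MOLM-13 and a bar at the mean of 2 replicates. NCOA4, TFRC, SLC11A2, SLC40A1 and ACO1 are highest in HEL libraries, FTL is highest in MOLM-13 cytosol at 5613 and 5296 CPM, and IREB2 and TAX1BP1 are highest in P-bodies of either line.

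Whether the P-body change differed between lines was tested as an interaction in a fit of all 8 libraries, MOLM-13 minus HEL. ACO1 and NCOA4 were called more P-body enriched in MOLM-13 (2 of 10), and FTH1 and FTL less (2 of 10). Of 17477 genes tested, 9.54% were called higher and 13.6% lower in this term. The difference was 0.84 ± 0.15 (log2, SE) for ACO1 (adjusted p = 7.81e-05, edgeR quasi-likelihood test) and -0.77 ± 0.14 for FTH1 (adjusted p = 0.000106). For FTL it was -0.56 ± 0.072 (adjusted p = 2.96e-07) and for NCOA4 0.32 ± 0.1 (adjusted p = 0.0209). The median over all genes was -0.11. TAX1BP1 (0.13), IREB2 (0.11), TFRC (0.021), SLC11A2 (-0.27) and HMOX1 (0.31) were not called, with 95% intervals of -0.035 to 0.29, -0.079 to 0.30, -0.18 to 0.22, -0.67 to 0.13 and -0.50 to 1.13 in that order. SLC40A1 was not called either, on too few MOLM-13 counts for a useful value.

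Both ferritin chains lost the call of a line difference without HEL cytosol replicate 1, where FTH1 stood at -0.32 (adjusted p = 0.108) and FTL at -0.23 (adjusted p = 0.0965), and the median of all genes moved by 0.28. NCOA4 lost its call with a filter of 5 CPM (0.24, adjusted p = 0.0662), without HEL P-body replicate 2 (0.22, adjusted p = 0.0999), without MOLM-13 P-body replicate 1 (0.31, adjusted p = 0.06), without MOLM-13 cytosol replicate 1 (0.24, adjusted p = 0.17) and with the trend on base composition and length removed (0.14, adjusted p = 0.299). With TMM factors computed within each line the median of all genes moved by 0.19, and NCOA4 stood at 0.51 (adjusted p = 0.00021). On that scale TAX1BP1 (0.32, adjusted p = 0.00277) and IREB2 (0.30, adjusted p = 0.0138) were called as well. Leaving out HEL P-body replicate 1 gave calls for this pair too (0.46 and 0.46), as did leaving out HEL cytosol replicate 1 (0.43 and 0.34) or HEL cytosol replicate 2 (0.41 and 0.46), and TFRC was called without HEL P-body replicate 1 (0.42, adjusted p = 0.000369). ACO1 stayed called under all 17 alternatives run for it, between 0.70 and 1.15.

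Levels between the lines were compared in the same fit, separately for cytosol and P-bodies. The iron importers, the exporter, NCOA4 and both regulatory proteins were lower in MOLM-13, and ferritin light chain and TAX1BP1 were higher. In cytosol 6 of 10 genes were called lower in MOLM-13 and 3 higher, where 40.1% of all genes were called lower and 44.2% higher. In P-bodies 7 were called lower and 2 higher, where the shares were 40.7% and 41.0%. In bulk libraries, fewer cells with an mRNA and less of it per cell cannot be told apart.

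The most unequal mRNA was SLC40A1, whose counts summed to 3767 in HEL cytosol and 2 in MOLM-13 cytosol, and to 4670 and 4 in P-bodies. Adjusted for library size the HEL to MOLM-13 ratio was 815 in cytosol (95% exact interval 225 to 6731) and 701 in P-bodies (274 to 2575), which covers counting error only. ACO1 followed, with 241 and 247 CPM in HEL cytosol and 12.3 and 11.5 CPM in MOLM-13 cytosol. It was 20.6-fold lower in MOLM-13 cytosol (log2 difference -4.36 ± 0.1, SE, adjusted p = 4.35e-29, edgeR quasi-likelihood test) and 11.5-fold lower in P-bodies (-3.52 ± 0.097). TFRC was 6.78-fold lower in cytosol and 6.68-fold lower in P-bodies, NCOA4 5.13-fold and 4.12-fold, and SLC11A2 3.89-fold and 4.7-fold. IREB2 differed least among the called genes in cytosol, 1.32-fold lower (-0.40 ± 0.068, adjusted p = 2.47e-06).

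FTL ran the other way, at 998 and 1046 CPM in HEL cytosol and 5613 and 5296 CPM in MOLM-13 cytosol. It was 5.34-fold higher in MOLM-13 cytosol (2.42 ± 0.054, adjusted p = 1.17e-29, edgeR quasi-likelihood test) and 3.62-fold higher in P-bodies (1.86 ± 0.053). TAX1BP1 was 1.37-fold higher in cytosol and 1.5-fold higher in P-bodies of MOLM-13, and the cytosolic call was lost with no low-count filter (0.16, adjusted p = 0.0927). FTH1 was 1.46-fold higher in MOLM-13 cytosol (0.55 ± 0.1, adjusted p = 9.82e-06). Its lower level in MOLM-13 P-bodies (-0.22 ± 0.1, adjusted p = 0.0429) was not called in 8 of the alternatives, namely library totals (-0.21), DESeq2 (-0.22), a filter of 5 CPM (-0.055) and TMM within each line (-0.15), and without HEL P-body replicate 1 (-0.03), HEL cytosol replicate 1 (-0.074) or 2 (-0.073) or MOLM-13 P-body replicate 1 (-0.14), with adjusted p from 0.0629 to 0.825. The P-body difference of IREB2 (-0.29 ± 0.063, adjusted p = 9.63e-05) was not called without HEL P-body replicate 1 (-0.081, adjusted p = 0.27), without HEL cytosol replicate 1 (-0.14, adjusted p = 0.0604), without HEL cytosol replicate 2 (-0.14, adjusted p = 0.059) or with a filter of 5 CPM (-0.12, adjusted p = 0.0706). HMOX1 was not called in either fraction (-0.18 in cytosol, 95% interval -0.81 to 0.45, and 0.14 in P-bodies, -0.38 to 0.66).

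**Figure D3:**
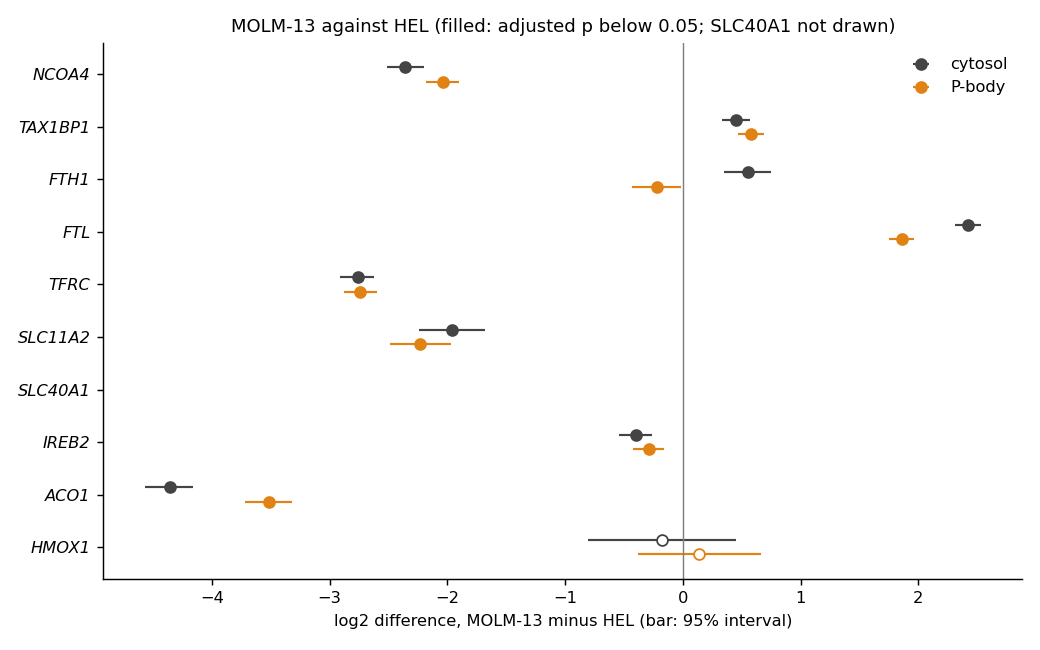
Log2 difference between MOLM-13 and HEL (horizontal axis, MOLM-13 minus HEL) in cytosol (grey) and in P-bodies (orange), with 95% intervals and filled points for an adjusted p below 0.05 (edgeR quasi-likelihood test, 2 libraries a group). ACO1 lies farthest to the left at -4.36 and -3.52 and FTL farthest to the right at 2.42 and 1.86; SLC40A1 is not drawn because MOLM-13 had 6 counts in its 4 libraries.

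Per kilobase of transcript, the level in HEL cytosol was highest for FTL (1164 ± 38.3 CPM per kilobase, SD, n = 2), followed by NCOA4 (161 ± 6.06), TFRC (101 ± 1.05), TAX1BP1 (90.2 ± 0.522) and FTH1 (50.3 ± 8.4). Below them came SLC40A1 (33 ± 1.41) and ACO1 (32.7 ± 0.53), which did not differ beyond their spread, then IREB2 (28.1 ± 1.71), SLC11A2 (10.3 ± 0.195) and HMOX1 (1.73 ± 0.192). In MOLM-13 cytosol the order was FTL (6212 ± 255), TAX1BP1 (123 ± 4.5), FTH1 (73.7 ± 0.552), NCOA4 (31.4 ± 2.61), IREB2 (21.3 ± 0.975), TFRC (14.9 ± 0.135) and SLC11A2 (2.66 ± 0.347), ahead of ACO1 (1.59 ± 0.0752) and HMOX1 (1.51 ± 0.235), whose values overlapped. Only FTL stood above NCOA4 in HEL cytosol, whereas FTL, TAX1BP1 and FTH1 stood above it in MOLM-13 cytosol. The place of FTH1 in both orders is uncertain and may be too low. Its pseudogene symbols held 14% to 26.5% of the joint counts in the cytosolic libraries. Reads that match several sites may also be missing from its count, and their treatment is not given. The scale-free ratio of NCOA4 to FTL counts was 0.382 and 0.346 in HEL cytosol and 0.0121 and 0.0145 in MOLM-13 cytosol. In P-bodies it was 0.721 and 0.611 in HEL and 0.0462 and 0.0429 in MOLM-13, above the cytosolic ratio of the same line in every library.

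The genes also differ in base composition, with which P-body change moved across all genes. A smooth trend on GC content and transcript length had an adjusted R2 of 0.37 over 14380 genes in HEL and 0.414 over 13673 genes in MOLM-13. IREB2 (38.3% GC) and TAX1BP1 (39.2%) were in the AT-rich end of coding transcripts, whose median was 49.8%, and FTL (56.3%) and HMOX1 (58.1%) in the GC-rich end. TFRC (41.5%), SLC40A1 (42.4%), SLC11A2 (43.3%), ACO1 (45.7%), NCOA4 (46.7%) and FTH1 (50.1%) lay between. Genes of 46 to 48% GC, among which NCOA4 falls, had a median log2 change of 0.00068 in HEL (middle 50% from -0.33 to 0.40) and 0.15 in MOLM-13 (-0.26 to 0.60). NCOA4 lay above that range in both lines. For ACO1 the genes of 44 to 46% GC ran from -0.20 to 0.62 in HEL, and ACO1 lay below that range.

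**Figure D4:**
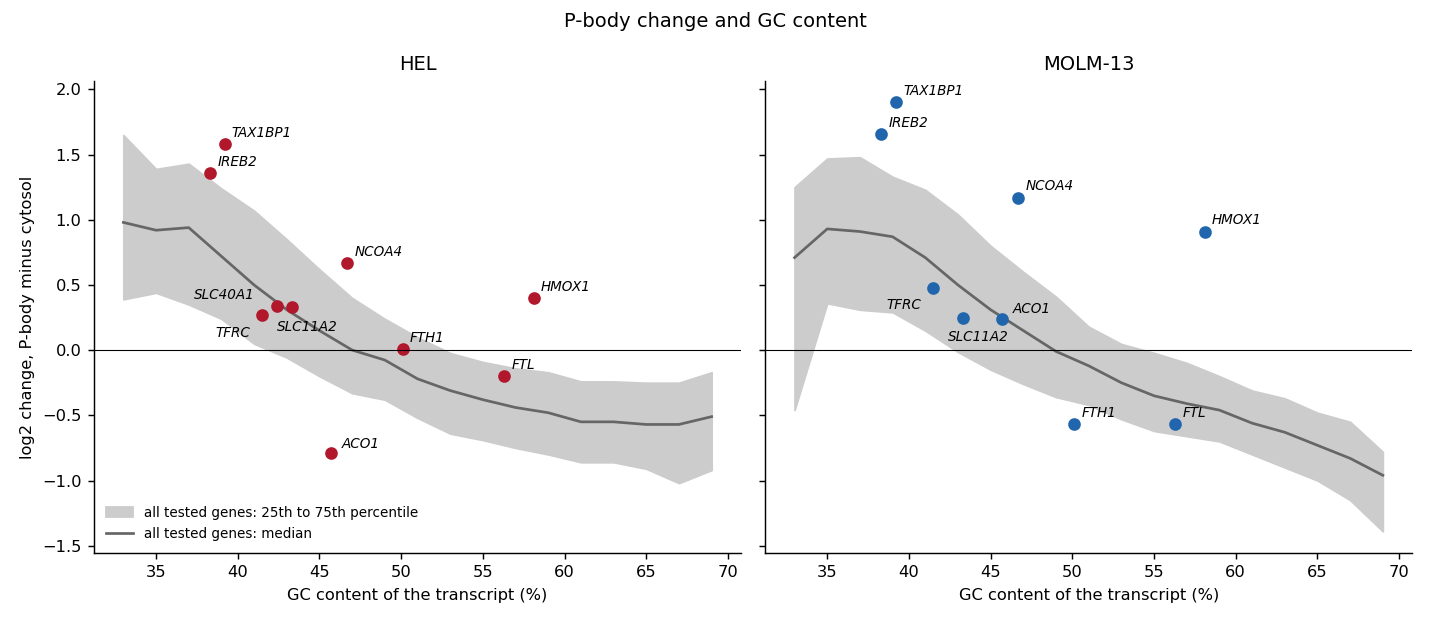
Log2 change between P-bodies and cytosol (vertical axis) against GC content of the transcript in percent (horizontal axis), for the iron-handling genes (points) and for all tested genes in bins of 2 percentage points (line: median, band: 25th to 75th percentile). TFRC, SLC11A2, SLC40A1, FTH1 and FTL sit in or at the edge of the band in HEL, ACO1 sits below it, and NCOA4, TAX1BP1, IREB2 and HMOX1 sit above it in both lines.

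With that trend removed, NCOA4 stood at 0.62 in HEL and 0.97 in MOLM-13, TAX1BP1 at 0.91 and 1.14, and IREB2 at 0.58 and 0.87, all still called higher. ACO1 stayed lower in HEL (-0.95, adjusted p = 8.13e-11, edgeR quasi-likelihood test). The direction of the smaller changes turned: FTL was called higher in HEL (0.24, adjusted p = 0.0049) and was at 0.074 in MOLM-13, and TFRC was called lower in HEL (-0.23, adjusted p = 0.0112) and was at -0.14 in MOLM-13. SLC11A2 went to 0.02 and -0.23 and SLC40A1 to -0.039 in HEL, none of them called. FTH1 remained called lower in MOLM-13 (-0.39, adjusted p = 0.000258), and HMOX1 was called higher in HEL too (0.92, adjusted p = 0.005).

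Genes listed for a known iron-responsive element were counted by its position. The lists used here were chosen with earlier results of these data known and may not be complete. They hold 6 genes for the 5′ and 4 for the 3′ untranslated region. Of the first, 5 were tested in HEL, of which 3 were called lower, among them FTL and ALAS2 (erythroid haem synthesis, -0.41, adjusted p = 0.000167, edgeR quasi-likelihood test). SLC40A1 was called higher and FTH1 was not called, and the list median was -0.20. In MOLM-13, 2 of 3 were lower and 0 higher, with a median of -0.57. All 4 genes of the 3′ list were called higher in HEL (TFRC, SLC11A2, the phosphatase CDC14A at 0.35 and the kinase CDC42BPA at 0.32), with a median of 0.33. In MOLM-13, 2 of 3 were higher, with a median of 0.48. Counts by gene symbol do not separate transcript forms with and without the element. The pattern had no match in the SLC11A2 transcript used here, and matches in CDC14A and CDC42BPA are not given. Over all tested genes 27.7% were called higher and 27.1% lower in HEL, and 32.4% and 28.4% in MOLM-13, and the difference between the lists was not tested. On library totals 0 of the mRNAs of the 3′ list were called in either line, with medians of 0.0023 and 0.043 (edgeR quasi-likelihood test). The 5′ list then had 0 higher and 4 lower in HEL. With the base composition trend removed the 3′ list had 1 higher and 1 lower in HEL and 1 higher in MOLM-13, and the 5′ list had 1 higher and 0 lower in HEL and 1 higher and 1 lower in MOLM-13.

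A wider set of 96 genes in 7 lists of iron and haem biology showed how the 10 genes compare with their pathways. In HEL 81 were tested, of which 20 were called higher and 30 lower in P-bodies (median log2 change -0.16). In MOLM-13 76 were tested, with 25 higher and 23 lower and a median of -0.017. The shares over all tested genes, against which this set and each of its lists are to be read, were 27.7% higher and 27.1% lower in HEL and 32.4% higher and 28.4% lower in MOLM-13. The balance of the set depended on the scaling. On library totals the counts were 10 higher and 50 lower in HEL and 17 higher and 49 lower in MOLM-13. With the trend on base composition and length removed they were 19 higher and 15 lower in HEL (median 0.093) and 34 higher and 9 lower in MOLM-13 (median 0.17).

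Among 18 partners of ferritinophagy and autophagosome formation, 6 were higher and 8 lower in HEL and 9 higher and 5 lower in MOLM-13 (medians -0.23 and 0.14). On library totals the counts were 5 and 11 in HEL and 8 and 9 in MOLM-13, and with the trend removed 4 and 4 in HEL and 9 and 1 in MOLM-13. TBK1, a kinase that acts on autophagy receptors, was 2.33-fold higher in HEL P-bodies (log2 change 1.22 ± 0.087, SE, adjusted p = 3.56e-10, edgeR quasi-likelihood test). ATG9A, a scramblase of autophagosome membranes, was 2.26-fold lower there (-1.17 ± 0.089, adjusted p = 2.48e-11). In MOLM-13, where it had 19 to 57 counts per library, ATG9A was 2.2-fold higher in P-bodies (1.14 ± 0.27, adjusted p = 0.000864), and the line difference was 2.12 (adjusted p = 4.11e-08). In MOLM-13 the receptor NBR1 was 3.05-fold higher (1.61 ± 0.062) and PIK3C3, the lipid kinase that starts autophagosomes, 3.03-fold higher (1.60 ± 0.074). With the trend removed TBK1 stood at 0.55, ATG9A at -0.59 in HEL and PIK3C3 at 0.83, all still called. HERC2, the ligase that marks NCOA4 for degradation when iron is plentiful, is named here after its values were seen. By TMM it was called lower in P-bodies of both lines, at -0.93 in HEL and -0.40 in MOLM-13. Its values under the alternatives are not given here, and with the trend removed 1 of the 18 partners was called lower in MOLM-13.

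In iron regulation 4 of 7 tested genes were higher and 2 lower in HEL, and 5 of 7 higher and 1 lower in MOLM-13 (medians 0.39 and 1.09). In HEL the counts were 3 and 3 on library totals (median 0.062) and 2 and 1 with the trend removed (median 0.16). BACH1, the haem-sensing repressor of HMOX1 and ferritin genes, was 2.47-fold higher in HEL P-bodies (1.31 ± 0.07, adjusted p = 2.9e-14, edgeR quasi-likelihood test) and 3.73-fold higher in MOLM-13 (1.90 ± 0.057). NFE2L2, which encodes NRF2, an activator of those genes, was 2.17-fold and 3.13-fold higher. With the trend removed BACH1 stood at 0.55 in HEL and 1.11 in MOLM-13, still called. FBXL5, the iron-sensing subunit of the ligase that degrades IRP2, was also named after its values were seen. It was called higher at 0.73 in HEL and 1.02 in MOLM-13, the same direction as IREB2. With the trend removed BACH1 and NFE2L2 made up the 2 higher calls of the list in HEL, and FBXL5 was not called higher there. KEAP1, the adaptor that holds NRF2 down, likewise named afterwards, was called lower in both lines, at -0.51 and -0.40. On library totals the list had 5 higher and 1 lower in MOLM-13. With the trend removed it had 6 higher and 0 lower there, so KEAP1 was no longer called lower in MOLM-13.

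Uptake and trafficking had 2 of 12 tested genes higher and 5 lower in HEL, and 1 of 10 higher and 5 lower in MOLM-13 (medians -0.35 and -0.33). On library totals 1 was higher and 7 lower in HEL, and 1 higher and 9 lower in MOLM-13. With the trend removed 2 were higher and 3 lower in HEL (median -0.047), and 2 higher and 5 lower in MOLM-13 (median -0.25). EXOC6, an exocyst subunit that serves transferrin recycling, was 2.28-fold higher in HEL and 3.03-fold higher in MOLM-13. STEAP3, the endosomal ferrireductase, was 1.7-fold lower in HEL, and PCBP2, an iron chaperone and RNA-binding protein, 1.66-fold lower in MOLM-13. With the base composition trend removed EXOC6 stood at 0.40 in HEL and 0.78 in MOLM-13, both still called, and STEAP3 was at -0.26 and not called (adjusted p = 0.0824, edgeR quasi-likelihood test). Of 9 genes of iron export and systemic control, HEPH (a ferroxidase, -0.78) and BMP6 (an inducer of hepcidin, -0.98) were tested in HEL and were lower, and 0 passed the count filter in MOLM-13. BMP6 was not called with DESeq2 (adjusted p = 0.128) or with the trend removed (adjusted p = 0.218).

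Haem synthesis had 3 of 12 genes higher and 6 lower in HEL and 2 of 10 higher and 1 lower in MOLM-13 (medians -0.16 and 0.11). This balance turned with the scaling, to 0 higher and 7 lower in HEL and 0 and 8 in MOLM-13 on library totals, and to 5 and 2 in HEL and 6 and 0 in MOLM-13 with the trend removed. ALAS1, its first enzyme, was 1.6-fold lower in HEL P-bodies and 1.35-fold higher in MOLM-13 P-bodies, at -0.0093 and not called in MOLM-13 on library totals and at -0.36 in HEL with the trend removed. The transporter ABCB6 was 1.78-fold lower in HEL, and FECH, the last enzyme, 1.44-fold higher in MOLM-13. Neither was called with DESeq2 (adjusted p = 0.168 and 0.11) or with the trend removed, and FECH was not called on library totals (0.093). In haem breakdown and transport, 1 of 7 was higher and 2 lower in HEL, and 0 of 8 higher and 4 lower in MOLM-13. Library totals gave 0 higher and 5 lower in HEL and 0 and 7 in MOLM-13, and trend removal 3 and 1 in HEL and 2 and 2 in MOLM-13. The exporter FLVCR1 (0.55) was higher and the reductase POR (-0.76) lower in HEL, and the transporters SLC48A1 (-0.69) and FLVCR2 (-0.55) were lower in MOLM-13. FLVCR1 was not called on library totals (0.23, adjusted p = 0.0875), FLVCR2 was not called with DESeq2 (adjusted p = 0.186), and FLVCR1 (0.19), POR (-0.14) and SLC48A1 (-0.29) were not called with the trend removed. Iron-sulfur cluster assembly had 4 of 23 higher and 5 lower in HEL and 8 higher and 7 lower in MOLM-13. On library totals the counts were 1 and 15 in HEL and 3 and 15 in MOLM-13, and with the trend removed 3 and 3 in HEL and 9 and 1 in MOLM-13. The ferredoxin reductase FDXR (-0.75) and the scaffold protein ISCA1 (0.70) led in HEL, and the chaperone HSPA9 (1.24) was among the leading genes in MOLM-13. FDXR (-0.13) and ISCA1 (0.14) were not called with the trend removed, and HSPA9 stood at 0.77.

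**Figure D5:**
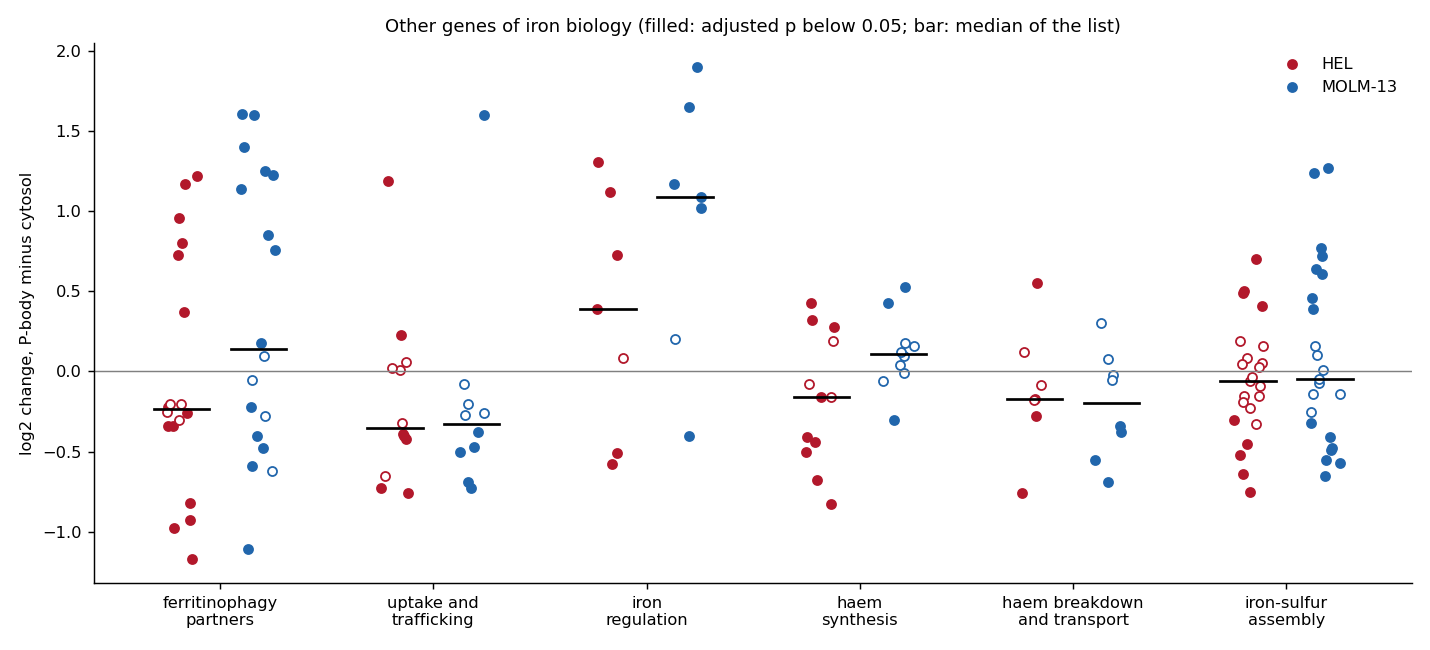
Log2 change between P-bodies and cytosol (vertical axis) for the tested genes of 6 lists of iron and haem biology, in HEL (red) and MOLM-13 (blue), with filled points for an adjusted p below 0.05 (edgeR quasi-likelihood test) and a bar at the median of each list. Among the 6 lists drawn and by TMM, iron regulation has the highest median in both lines (0.39 and 1.09) and uptake and trafficking the lowest (-0.35 and -0.33); iron export and systemic control is not drawn because only 2 of its genes were tested in HEL (median -0.88) and 0 in MOLM-13.

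Among the 5 genes nearest to NCOA4 over the 8 libraries, by Euclidean distance of centred log2 CPM among 17476 other genes, were PRKD3 (a protein kinase, distance 0.148), ITGB1 (an integrin chain, 0.184), ZNF274 (a zinc finger protein, 0.262) and MOB1B (a kinase adaptor, 0.316). Those nearest to FTH1 were MAPK12 (0.179), SNRPB (0.248), NUDT22 (0.263), AMDHD2 (0.264) and PAFAH1B3 (0.267). PRKD3, the closest to NCOA4, changed by 0.77 in HEL P-bodies and 1.22 in MOLM-13 P-bodies, and was 5.01-fold lower in MOLM-13 cytosol than in HEL cytosol. ITGB1 changed by 0.62 and 1.14 and was 5.5-fold lower. MAPK12, the closest to FTH1, changed by 0.059 in HEL, where it was not called, and by -0.63 in MOLM-13. These alike changes follow from choosing the nearest genes over the same 8 libraries and are no separate result.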

How the data were processed

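The labels' protocols give RNA extraction with the miRNeasy Micro Kit, followed by NEBNext Ultra II library preparation from total RNA. What the authors deposited are unnormalized read counts by gene symbol, in 1 table for each line. Tools listed in the submitters' processing notes are DESeq2, SAMtools 1.12 and STAR, with GRCh38 as build. No source used here gives the read counter, annotation release, strand setting, treatment of reads with several matches or P-body isolation. Rows of symbols that stood on more than 1 row (112 symbols, 1348 of 61544 rows) were left out.

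Counts were tested with edgeR 4.0.16 in R 4.3.3 (quasi-likelihood, TMM, filterByExpr with a smallest count of 10, Benjamini-Hochberg over all tested genes, threshold 0.05), in each line for P-body against cytosol and over all 8 libraries for line differences. CPM within a line use TMM factors of that line, and CPM across lines those of all 8 libraries. Replicates of a group differed beyond sampling noise (chi-square per degree of freedom 1.87 to 6.15). A total of 55890 symbols were matched to GENCODE release 29, whose principal or longest coding transcript gave length and GC content. The fitting scripts were tested on simulated data.

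The 10 genes and all lists were chosen with earlier results of these data known. From each wider list at most the 2 called genes with the greatest change in each line were named, and for NCOA4 and FTH1 the 5 nearest genes (prior count 2); some of these genes are not reported here. Alternatives were RLE factors, library totals, DESeq2 1.42.0, no count filter, at least 5 CPM in at least 2 libraries, pseudogene counts added, a replicate block, removal of a trend on GC content and length (mgcv 1.9.3), leaving out each library, and TMM factors within each line, the last chosen after seeing the data. Intervals on counts (95%, exact conditional binomial) cover counting error only.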

Additional observations from a re-analysis of the deposited data

Results flagged for a closer look

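A test of the difference between lines called 4 of the 10 genes, 2 higher and 2 lower, where 9.54% of all genes were called higher and 13.6% lower. On the log2 scale, MOLM-13 minus HEL, the difference was 0.84 for ACO1 (adjusted p = 7.81e-05), -0.77 for FTH1 (adjusted p = 0.000106), -0.56 for FTL (adjusted p = 2.96e-07) and 0.32 for NCOA4 (adjusted p = 0.0209, edgeR quasi-likelihood interaction test). ACO1 was lower in HEL P-bodies in both replicates and had 80 to 120 counts per MOLM-13 library, so its MOLM-13 side is the less precise. FTH1 and FTL lost the call without HEL cytosol replicate 1 (-0.32 and -0.23), and with pseudogene counts added FTH1 stood at -0.89. NCOA4 lost the call under 5 alternatives, among them removal of the trend on GC content and length (0.14, adjusted p = 0.299).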

How the results depend on the processing

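Of 646 comparisons of a gene's value with an alternative, 579 kept their direction and side of the threshold, 33 lost a call, 10 gained one and 24 changed sign. Library totals gave 6690 genes lower in HEL (4008 by TMM) and 2912 higher and 7175 lower in MOLM-13 (4559 and 4005), and 3 of the 10 iron genes higher in HEL and 3 in MOLM-13 (6 and 5). RLE factors and DESeq2 each left 1 of them lower in HEL (2). DESeq2 called 2623 genes lower in MOLM-13 and 1466 lower in the line difference (2371), and with the GC and length trend removed 2536 genes and 1 iron gene were lower in MOLM-13. In the line difference, TMM within each line gave 2711 genes higher (1668), 1411 lower and 4 iron genes higher (2), and the 5 CPM filter and trend removal 1 iron gene higher each. Leaving out each library gave ranges in the line difference of 1272 to 3495 genes higher, 915 to 2108 lower, 1 to 5 iron genes higher and 0 to 2 lower; 3495 came without HEL P-body replicate 1, when the median of all genes moved by 0.30, and 915 without HEL cytosol replicate 2. In HEL the iron genes called lower ranged from 1 to 2. The cause of these moves was not tested.

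Signs turned as follows. With library totals: FTH1 -0.31 and TFRC -0.058 in HEL, SLC11A2 -0.19 and ACO1 -0.19 in MOLM-13. With the trend removed: FTL 0.24, TFRC -0.23 and SLC40A1 -0.039 in HEL, FTL 0.074, TFRC -0.14, SLC11A2 -0.23 and ACO1 -0.04 in MOLM-13, and TFRC -0.12 in the line difference. With the 5 CPM filter: FTH1 -0.0071 in HEL and TFRC -0.051 in the line difference. HMOX1 between P-bodies went to -0.085 with no low-count filter. Leaving out 1 library put FTH1 in HEL between -0.15 and 0.19, and in the line difference TFRC between -0.069 and 0.42 and SLC11A2 between -0.41 and 0.18, and HMOX1 between P-bodies between -0.054 and 0.45.

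Replicate numbers were not taken to pair libraries: deviations of same-numbered libraries correlated at 0.192 in HEL and -0.0387 in MOLM-13. With the replicate number as a block, 4021 genes were higher and 3982 lower in HEL, 4573 and 4008 in MOLM-13, and 1652 and 2313 in the line difference, the iron gene counts were 6 and 2, 5 and 2, and 2 and 2, and NCOA4 stood at 0.66 and 1.18. Depth limits SLC40A1 in MOLM-13 and HMOX1 in both lines.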
